A study of Mus musculus with 55 samples.

Results

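The 9 genes described here supply fat cells with glycerol 3-phosphate (Pck1, Pcx and Gpd1), let out glycerol (Aqp7) or belong to the pyruvate dehydrogenase complex and its control. The last are Pdk1, Pdk2, Pdk4, Pdp1 and Pdha1. They were taken by name from 3 tables of raw read counts, 1 per fat depot, and are 9 of 31933 genes in those tables. All 9 were measured in each of 55 libraries and passed the filter on low counts in every fit. The study asked how housing temperature changes what glucocorticoids do in different fat depots of the mouse. The mice were male C57BL/6NRj, 10 weeks old, and drank water with corticosterone (GC), the glucocorticoid hormone of rodents, or with placebo (Ctrl) over 4 weeks, housed at either 22 °C or 13 °C. Small areas were cut by laser from 3 depots, the interscapular brown depot (iBAT), the gonadal white depot (goWAT) and the subcutaneous white depot (scWAT), and a few nanograms of their RNA went into each library. In iBAT there were 3 placebo and 5 GC libraries at 22 °C and 5 and 5 at 13 °C. The same groups held 4, 5, 5 and 5 libraries in goWAT and 4, 5, 5 and 4 in scWAT. All mice were of the same strain and sex, and no group is labelled with a genetic change.

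Fat cells store fatty acids as triglyceride, and each triglyceride needs a glycerol 3-phosphate backbone. Where glucose is scarce, the backbone can be made from pyruvate or lactate by glyceroneogenesis: pyruvate carboxylase (Pcx) makes oxaloacetate, cytosolic phosphoenolpyruvate carboxykinase (Pck1) turns it into phosphoenolpyruvate, and glycerol 3-phosphate dehydrogenase (Gpd1) makes the backbone itself, while the glycerol channel Aqp7 lets out glycerol freed by lipolysis. The pyruvate dehydrogenase complex competes for the same pyruvate and turns it into acetyl-CoA. Its catalytic subunit Pdha1 is switched off by phosphorylation through the kinases Pdk1, Pdk2 and Pdk4 and switched on again by the phosphatase Pdp1. Glucocorticoids are known to lower Pck1 transcription in white fat, in contrast to liver, and to raise Pdk4 in several tissues.

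Total counts per library ran from 8622178 to 56450653. Log2 values of counts scaled to library size (CPM) of libraries of the same group correlated at 0.850 to 0.969, and no pair held identical counts. The 10 adipocyte markers, among them Adipoq and Plin1, were above 0 in all 55 libraries, with a mean log2 CPM of 9.70 to 11.3 for iBAT, from 11.4 to 12.6 for goWAT and from 11.1 to 12.3 for scWAT. The 10 brown fat markers averaged 7.54 to 9 log2 CPM in iBAT and 1.93 to 3.68 in 17 of 19 goWAT libraries. They reached 5.78 in goWAT GC replicate 1 at 22 °C and 6.47 in GC replicate 1 at 13 °C. The 12 macrophage markers averaged 8.22 and 8.10 log2 CPM in scWAT GC replicates 2 and 3 at 22 °C and 3.83 to 6.14 in the other 16 scWAT libraries. Calls of the 9 genes within a depot that rest on these libraries are given with and without them. The pathway lists, kinase shares, correlations and differences of the GC effect are given only with them. Which animal a library came from is not in the labels, and they do not say how areas were chosen for capture, so the p-values measure the spread between these libraries, which may share animals. In such tissue samples, fewer cells of a type and less RNA per cell cannot be told apart.

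Coordinates are from GENCODE M21 on GRCm38 (mm10). Pck1 lies at chr2:173153048-173159273 on the plus strand, Pcx at chr19:4510472-4621752 plus, Gpd1 at chr15:99717515-99725005 plus and Aqp7 at chr4:41033074-41048139 minus. Pdk1 lies at chr2:71873224-71903858 plus, Pdk2 at chr11:95026258-95041354 minus, Pdk4 at chr6:5483351-5496309 minus, Pdp1 at chr4:11958184-11966452 minus and Pdha1 at chrX:160122209-160138413 minus. The library protocol marks no strand. Gpd1 shares 384 exon bases with the antisense gene Gm16537, and Pdha1 shares 603 with Map3k15 on the other strand, so the reads of these stretches cannot be assigned to 1 gene. Pcx and Pdk2 overlap Lrfn4 and Gm11513 only outside exons.

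Promoters of 7 of the 9 genes were found in RefSeq's table for GRCm38.p6, without Gpd1 and Pdp1. Those of Pck1, Pcx, Pdk2 and Pdk4 are printed as examples. Below, Pck1 and Pcx were called lower in goWAT, Pdk2 in scWAT, and Pdk4 differed between iBAT and goWAT. Aqp7, Pdk1 and Pdha1 were also called lower in white fat, and their promoters are not printed. Each is the 250 bases before the start of transcription, 5′ to 3′ on the gene's own strand, and where 2 promoters are listed the upstream one is shown. Capitals mark matches on either strand to 5 short motifs: the glucocorticoid receptor half-site AGAACA, the cyclic AMP response half-site TGACG, the nuclear receptor half-site AGGTCA, the E-box CACGTG and the CCAAT box CCAAT.
Pck1 (chr2:173152823-173153072, plus strand): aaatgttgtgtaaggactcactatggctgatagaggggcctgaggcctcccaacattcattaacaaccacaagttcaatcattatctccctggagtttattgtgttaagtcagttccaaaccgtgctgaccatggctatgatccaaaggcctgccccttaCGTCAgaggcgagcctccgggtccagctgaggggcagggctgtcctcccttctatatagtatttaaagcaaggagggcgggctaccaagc
Pcx (chr19:4510222-4510471, plus strand): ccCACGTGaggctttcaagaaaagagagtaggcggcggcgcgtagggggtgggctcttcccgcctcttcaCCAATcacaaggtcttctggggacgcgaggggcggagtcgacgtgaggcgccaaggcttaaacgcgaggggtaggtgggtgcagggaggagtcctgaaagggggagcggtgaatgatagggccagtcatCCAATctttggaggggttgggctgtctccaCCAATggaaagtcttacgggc
Pdk2 (chr11:95041372-95041621, minus strand): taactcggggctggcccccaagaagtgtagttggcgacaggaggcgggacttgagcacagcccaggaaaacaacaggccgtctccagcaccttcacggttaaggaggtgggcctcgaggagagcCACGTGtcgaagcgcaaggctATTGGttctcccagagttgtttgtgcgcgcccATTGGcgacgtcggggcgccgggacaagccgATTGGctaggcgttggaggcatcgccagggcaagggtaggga
Pdk4 (chr6:5496279-5496528, minus strand): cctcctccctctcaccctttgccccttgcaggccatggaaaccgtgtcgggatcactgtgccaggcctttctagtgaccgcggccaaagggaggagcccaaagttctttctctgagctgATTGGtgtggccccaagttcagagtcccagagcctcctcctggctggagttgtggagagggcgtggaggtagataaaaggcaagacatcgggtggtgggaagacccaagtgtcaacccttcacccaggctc
The Pck1 window held 1 match, the cyclic AMP response half-site read on the other strand, 90 to 86 bases before the start. The windows of Pcx and Pdk2 each held 1 E-box and 3 CCAAT boxes. The Pdk4 window held 1 CCAAT box. Among 32851 promoter windows of this length, 17.8% held TGACG, 6.02% CACGTG, 33.8% CCAAT, 16.1% AGAACA and 14% AGGTCA. The upstream windows of Pdk1 and Pdha1 held no match and that of Aqp7 held 1 AGGTCA. Of the second promoters listed, that of Pdk1 held 2 AGAACA and that of Aqp7 held 1 AGAACA and 2 AGGTCA. The second promoters of Pcx and Pdk2 held no match to any of the 5 motifs. These are matches of letters and were not tested as binding sites.

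In placebo mice at 22 °C Pck1 and Gpd1 had the highest levels of the 9 genes in every depot and the phosphatase gene Pdp1 the lowest. Levels between genes are compared as RPKM, reads scaled to exon length and library size. In iBAT the order was Gpd1 (1522 ± 579 RPKM, SD, n = 3), Pck1 (1115 ± 252), Pdha1 (371 ± 128), Pdk4 (337 ± 99.1), Pcx (251 ± 95.1), Pdk2 (95.4 ± 44), Aqp7 (86.1 ± 31.2), Pdk1 (18.1 ± 3.04) and Pdp1 (1.65 ± 0.316). In goWAT (n = 4) Pck1 came first (666 ± 154 RPKM), then Gpd1 (467 ± 100.3), Pcx (439 ± 84.8), Pdha1 (176 ± 12.6), Aqp7 (127 ± 15.2), Pdk2 (50.9 ± 14.7), Pdk1 (18 ± 4.42), Pdk4 (13.8 ± 3.39) and Pdp1 (3.82 ± 0.943). In scWAT (n = 4) it was Pck1 (1025 ± 158 RPKM), Gpd1 (740.0 ± 159.9), Pcx (363 ± 28.7), Pdha1 (191 ± 46.9), Aqp7 (95.8 ± 44.2), Pdk4 (60.6 ± 50.5), Pdk2 (45.3 ± 12), Pdk1 (14.8 ± 3.21) and Pdp1 (2.19 ± 0.671). Neighbours whose libraries overlapped, and which therefore have no settled order, were Gpd1 with Pck1 in all 3 depots, Pdha1 with Pdk4, Pdk4 with Pcx and Pdk2 with Aqp7 in iBAT, Gpd1 with Pcx and Pdk1 with Pdk4 in goWAT, and the run from Pdha1 to Pdk2 in scWAT. Over all 12 groups Pdk4 had the widest span of the 9, from 13.8 RPKM in goWAT placebo at 22 °C to 919 in iBAT GC at 22 °C, a ratio of 66.8. Pdp1 had the narrowest, from 1.65 to 4.02 RPKM.

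**Figure D1:**
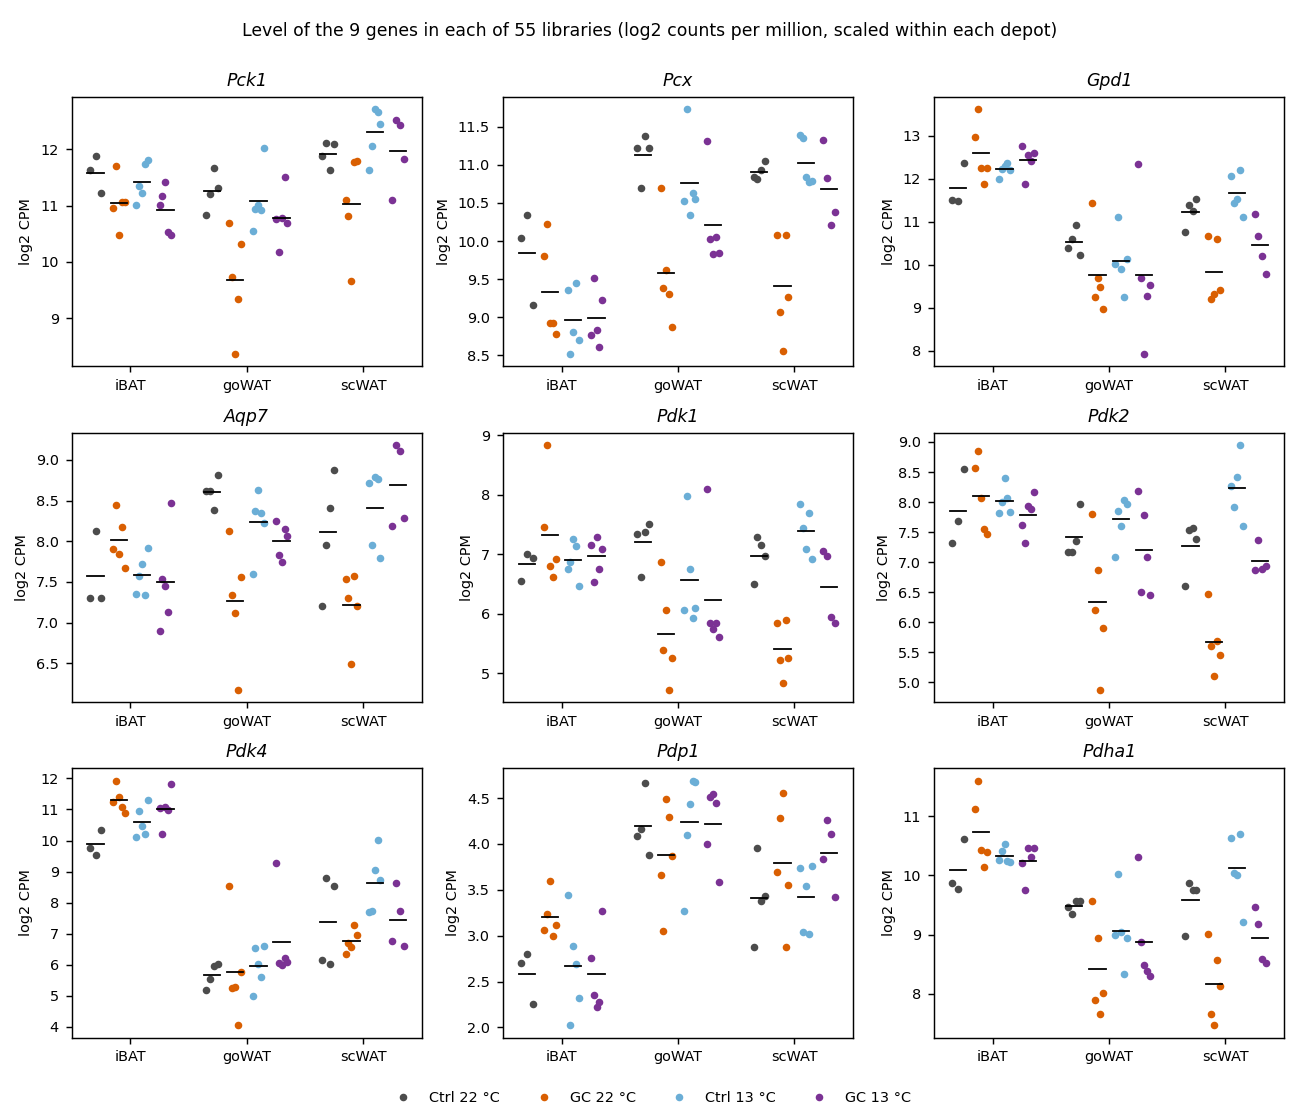
Level of each of the 9 genes in each of the 55 libraries, as log2 CPM scaled within a depot (vertical axis), by depot and group (horizontal axis). Points are libraries and black bars are group means. Pdk4 is higher in every iBAT library than in every goWAT library, while the highest scWAT library (1046 CPM, placebo at 13 °C) lies above the lowest iBAT library (749 CPM), and in scWAT the GC libraries at 22 °C lie below all placebo libraries for Pcx, Gpd1, Pdk1 and Pdk2.

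Pdk4, the kinase gene best known for its rise in fasting, was higher in iBAT than in goWAT. In 1 fit over all 55 libraries, placebo iBAT at 22 °C had 923 to 1577 CPM (3 libraries) and placebo goWAT 34.1 to 59.2 (4 libraries). CPM of comparisons between depots are scaled over all 55 libraries, and those of other results within 1 depot, so the same library has a different value in each. The groups did not overlap, and the log2 difference was 4.61 ± 0.81 (SE; edgeR adjusted p = 6.36e-05). Gpd1 was also higher in iBAT, at 3505 to 6484 against 1089.7 to 1783 CPM (log2 difference 1.70 ± 0.57, edgeR adjusted p = 0.0364). Pdp1 was lower there, at 5.82 to 8.55 against 13.4 to 23.3 CPM (log2 difference -1.21 ± 0.36, edgeR adjusted p = 0.0179). These were 3 of 9 genes called (Benjamini-Hochberg adjusted p under 0.05), beside 14.7% of all genes tested, and the median of the 9 log2 differences was 0.74 beside -0.15 over all genes. Without all 18 libraries that stood apart in the 3 depots, which leaves 1 placebo iBAT library at 22 °C assumed to vary like the other groups, Pdk4 was at 4.24 and still called. Gpd1 and Pdp1 were then at 1.33 and -1.02 (edgeR adjusted p = 0.282 and 0.489). With no filter on low counts the call of Gpd1 was lost (edgeR adjusted p = 0.0505). Scaled to the summed adipocyte markers in place of all genes, Pdp1 was at -0.92 and not called (edgeR adjusted p = 0.235). Gpd1 and Pdk4 kept their calls there. Pdk4 kept its call in all 55 fits without 1 library, Gpd1 in 50 and Pdp1 in 53. Removal of any of the 4 placebo goWAT libraries or of placebo iBAT replicate 3, all at 22 °C, ended the call of Gpd1. Without placebo goWAT replicate 3 or iBAT replicate 3 at 22 °C, that of Pdp1 was lost.

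scWAT lay between the other depots for Pdk4, at 57.8 to 393.7 CPM in 4 placebo libraries. Its difference from iBAT was 2.47 ± 0.75 on the log2 scale with no overlap (edgeR adjusted p = 0.0586), and goWAT differed from it by -2.14 ± 0.71 (edgeR adjusted p = 0.0694). With edgeR none of the 9 genes was called in either comparison, beside 2.81% and 4.33% of all genes; 3 and 2 had an unadjusted p under 0.05, beside 16.8% and 21.1%. DESeq2 called 1 gene between iBAT and scWAT, Pdk4, and none between goWAT and scWAT, and limma called Pdk4 in both. The fit without the 18 libraries called Pdk4 between goWAT and scWAT (-2.14; edgeR adjusted p = 0.0108). Within scWAT the placebo libraries with more Pdk4 also had more brown fat transcripts. Replicates 2 and 4 had 440.4 and 372 CPM of Pdk4 with brown fat lists at 7.14 and 6.34 log2 CPM, while replicates 1 and 3 had 70.9 and 64.8 CPM with lists at 4.97 and 4.48. The part of brown fat cells in the depot difference was not tested.

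Corticosterone at 22 °C was followed in goWAT by lower levels of 3 genes, Pck1 and Pcx of glycerol 3-phosphate supply and the glycerol channel gene Aqp7. Pck1, whose enzyme commits carbon to glyceroneogenesis, was at 1831, 2348, 3249 and 2527 CPM in the placebo libraries. In the GC libraries it was at 1644, 850.5, 329.6, 647 and 1271 CPM, all below the lowest placebo library (log2 fold change -1.39 ± 0.38, SE; edgeR adjusted p = 0.031). Pcx, the enzyme upstream of it, was at 2395, 1653, 2649.7 and 2391 CPM with placebo and at 1664, 665, 789, 635 and 469 with GC. GC replicate 1, the highest of its group, was just above the lowest placebo library, and the change was -1.43 ± 0.38 (edgeR adjusted p = 0.0268). The glycerol channel Aqp7 was at 393, 392, 334 and 451 CPM with placebo and at 279, 161, 139, 72.2 and 189 with GC. Its groups did not overlap and it fell by 1.22 on the log2 scale (SE 0.28; edgeR adjusted p = 0.0104).

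These 3 falls among 9 genes stand beside 5.98% of all genes called and 2.85% called lower. Groups without overlap were found for 2 of the 9 and for 8.32% of all genes. The median of the 9 changes was -0.88, beside 0.05 over all genes, and 8 of the 9 were negative. The exception was Pdk4, at 0.97 ± 0.86 (edgeR adjusted p = 0.546), where 1 library stood far above the rest. GC replicate 1 had 368 CPM of Pdk4, while the other GC libraries had 16.6 to 54.8 and the placebo libraries 36.6 to 64.9. The same library, 1 of the 2 rich in brown fat transcripts, also had the highest Gpd1 (2789 CPM, beside 499.4 to 828 in the other GC libraries), Pdk1, Pdk2 and Pdha1 of its group. Without it and GC replicate 1 at 13 °C, 7 of the 9 genes were called lower: Pck1 (-1.70), Pcx (-1.85), Gpd1 (-1.20), Aqp7 (-1.5), Pdk1 (-1.83), Pdk2 (-1.34) and Pdha1 (-1.28), with edgeR adjusted p from 0.000816 to 0.0419. The share of all genes called in that fit is not given here, so the gain from 3 to 7 is not shown to be particular to these genes. Without GC replicates 2 and 4, which had the lowest totals of the depot (12310822 and 18290612 counts), only Aqp7 was called, and Pck1 and Pcx were at -1.22 and -1.23 (edgeR adjusted p = 0.142 and 0.14). GC replicate 5 at 22 °C and placebo replicates 1 and 4 at 13 °C carried epididymal transcripts, with 7 epididymal markers summing to 1407, 514 and 3561 CPM, beside 0.0972 to 48.7 in the other 16 libraries. Without these 3, Pck1 and Aqp7 were still called and Pcx was at -1.28 (edgeR adjusted p = 0.0717). A fit of only the 2 groups compared ended the call of Pck1 (edgeR adjusted p = 0.0672). Aqp7 kept its call in all 19 fits that left out 1 library of any group of the depot, and Pck1 and Pcx in 13 and 12 of them. Removal of placebo replicates 3 or 4 or of GC replicates 2, 3 or 4 ended both calls, of placebo replicate 2 that of Pck1, and of placebo replicate 1 or GC replicate 5 that of Pcx.

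**Figure D2:**
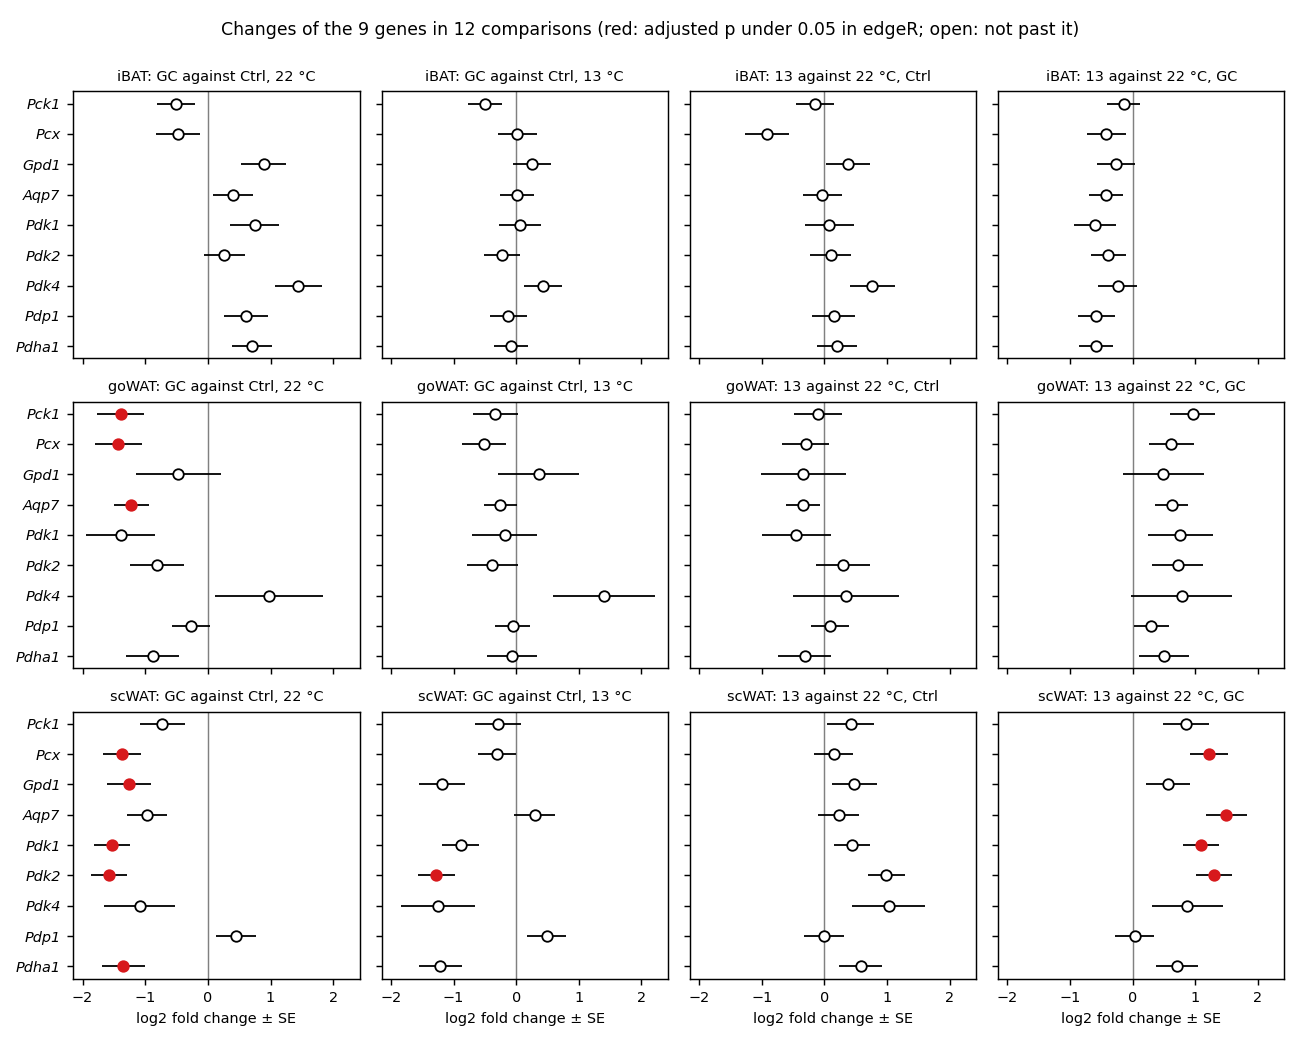
Log2 fold change (horizontal axis, with its SE as a bar) of the 9 genes (vertical axis) in 4 comparisons (columns) and 3 depots (rows). Filled red points passed an adjusted p of 0.05 in edgeR. The red points lie below 0 for GC in white fat and above 0 for 13 °C in GC scWAT, and there are none in iBAT.

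In scWAT the GC libraries at 22 °C had less of 5 of the 9 genes, 2 of glycerol 3-phosphate supply and 3 of pyruvate dehydrogenase. Pcx was at 1832, 1795, 1957 and 2115 CPM in the placebo libraries and at 1086, 538, 378, 1083 and 615 with GC. The groups did not overlap (log2 fold change -1.38 ± 0.30, SE; edgeR adjusted p = 0.00764). Gpd1, the enzyme that makes the glycerol backbone, was at 1724, 2693, 2418 and 2933 CPM with placebo and 1635, 589, 640.4, 1546 and 676 with GC, again without overlap (-1.26 ± 0.35; edgeR adjusted p = 0.0334). Pck1 and Aqp7 did not pass the test in scWAT, at -0.72 ± 0.37 and -0.97 ± 0.33 (edgeR adjusted p = 0.25 and 0.0753). The Pck1 libraries spread widely, from 811 to 3549.8 CPM with GC and from 3152 to 4427 with placebo.

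The kinase genes Pdk1 and Pdk2 had the largest changes of the 9 in scWAT. Pdk2, a kinase gene of most tissues, was at 97.1, 185, 189.6 and 168 CPM with placebo and 88.3, 48.4, 34.4, 51.7 and 44 with GC, a change of -1.58 ± 0.29 on the log2 scale, or 3.00-fold lower (edgeR adjusted p = 0.00198). Pdk1, a kinase gene induced by hypoxia in many cells, was at 90.1, 156, 142 and 126 CPM with placebo and 57.5, 37.5, 28.7, 59.7 and 38.2 with GC (-1.53 ± 0.29; edgeR adjusted p = 0.00255). Neither gene's groups overlapped. The subunit gene Pdha1, which the kinases act on, was at 504, 942, 862 and 865 CPM with placebo and 517, 201, 177, 380.0 and 282 with GC. GC replicate 1 was above the lowest placebo library, and the change was -1.35 ± 0.34 (edgeR adjusted p = 0.0174). Kinase and substrate genes thus both fell, while Pdk4 was at -1.09 ± 0.57 and the phosphatase Pdp1 at 0.45 ± 0.31 (edgeR adjusted p = 0.273 and 0.434).

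The 5 falls stand beside 6.93% of all genes called and 3.45% called lower, and the 4 without overlap beside 8.49% of all genes. The median of the 9 changes was -1.26 beside 0.06 over all genes. DESeq2 and limma each also called Aqp7. Macrophage and brown fat markers moved with this comparison. The 12 macrophage markers averaged 4.94 to 8.22 log2 CPM in the GC libraries and 4.76 to 6.05 in the placebo libraries. The 10 brown fat markers averaged 3.02 to 3.98 with GC and 4.48 to 7.14 with placebo, and no marker of either list was at 0. The 10 skeletal muscle markers averaged 0.0327 to 6.73 with GC and -0.155 to 4.81 with placebo, and their part was not tested. Without GC replicates 2 and 3, the 2 libraries rich in macrophage markers, Pdk1 (-1.31, edgeR adjusted p = 0.0284) and Pdk2 (-1.39, 0.0197) were still called. Pcx, Gpd1 and Pdha1 were then at -1.06, -0.93 and -1.02 (edgeR adjusted p = 0.0568, 0.198 and 0.121). The call of Gpd1 also ended without the 4 libraries at 13 °C that carried epithelial transcripts (edgeR adjusted p = 0.0568) and in a fit of only the 2 groups compared (0.0744). Pcx, Pdk1 and Pdk2 kept their calls in all 18 fits without 1 library of any group of the depot. Pdha1 kept its call in 16 (lost without placebo replicate 2 or 4). Gpd1 kept its call in 12 (lost without placebo replicates 2, 3 or 4 or GC replicates 2, 3 or 5).

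Scaled to the summed counts of the adipocyte markers in place of all genes, the median change of all genes in this comparison moved to 0.44. The 5 genes were then at -1.23 to -0.97 with edgeR adjusted p from 0.051 to 0.157, and none was called. Relative to that median they lay at -1.67 to -1.41. In goWAT the same scaling moved the median of all genes to -0.48 and called 6 of the 9 genes, with Pck1, Pcx and Aqp7 at -1.36, -1.55 and -1.31 relative to the median. The summed adipocyte markers ran from 55859 to 261959 CPM in the goWAT GC libraries and from 56178 to 86434 CPM with placebo. They include Plin1, itself called lower with GC in goWAT. How far the 6 calls rest on the library with the highest sum was not tested.

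**Figure D3:**
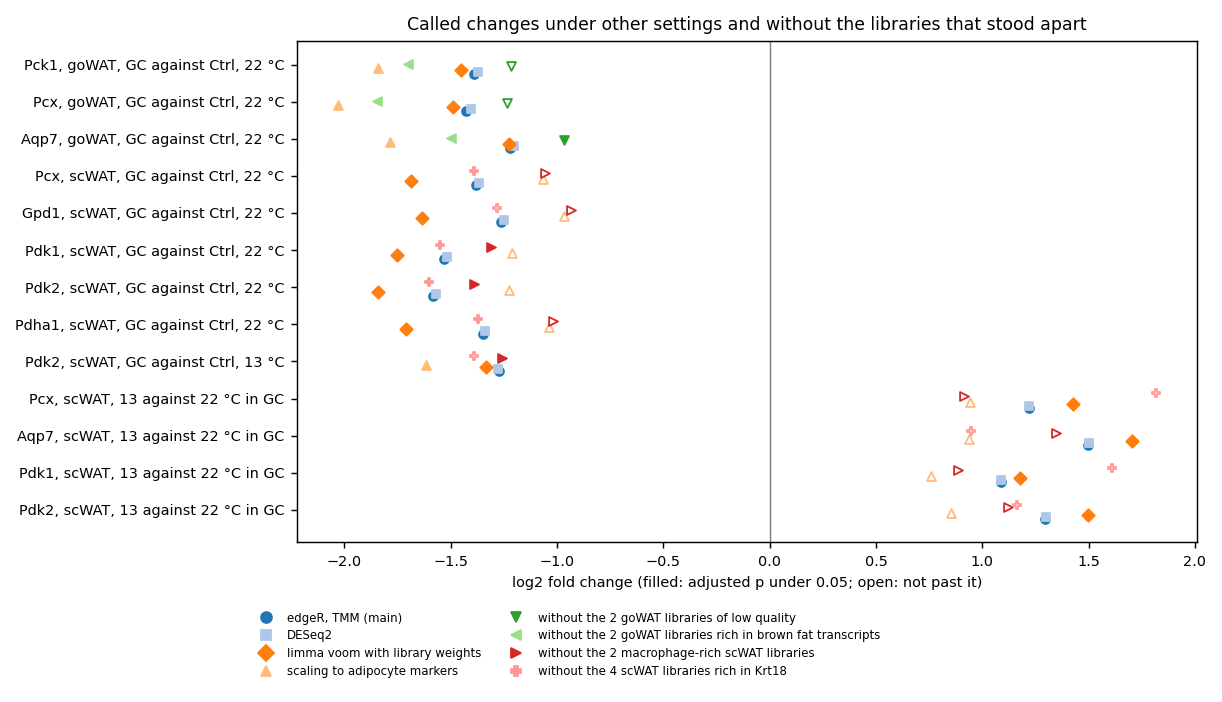
Log2 fold change (horizontal axis) of each change within a depot that passed the threshold (vertical axis), under other tests, another scaling and without the libraries that stood apart. Filled symbols have an adjusted p under 0.05 and open ones do not. No symbol crosses 0, and the open symbols come from the adipocyte scaling and from the fits without the doubted libraries.

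At 13 °C corticosterone was followed by a fall of Pdk2 in scWAT, the 1 gene of the 9 called in that depot, beside 2.59% of all genes. Pdk2 was at 309, 241, 342, 495 and 194 CPM with placebo and 117, 165, 118 and 123 with GC, without overlap (-1.27 ± 0.30; edgeR adjusted p = 0.0225). Gpd1 and Pdha1 lay close to the threshold, at -1.18 ± 0.36 and -1.21 ± 0.35 (edgeR adjusted p = 0.0863 and 0.0639), and DESeq2 and limma called both as well as Pdk1 and Pdk2. Pcx was at -0.30 ± 0.30 (95% interval -0.94 to 0.33; edgeR adjusted p = 0.717). The median of the 9 changes was -0.88, beside 0.01 over all genes. The 10 brown fat markers averaged 3.77 to 5.33 log2 CPM with GC here and 5.72 to 7.29 with placebo, without overlap and with none at 0, and their part in the result was not tested. The call of Pdk2 was lost without placebo replicate 4 or GC replicates 1, 4 or 5. GC replicates 3, 4 and 5 and placebo replicate 3 also carried epithelial transcripts, with 7 epithelial markers at a mean of 2.92 to 5.16 log2 CPM beside -0.94 to -0.48 in the other 14 libraries. Without these 4, which leaves 1 GC library assumed to vary like the other groups, Pdk2 was at -1.39 (edgeR adjusted p = 0.938).

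In goWAT at 13 °C edgeR called 0 of the 9 genes, beside 1.45% of all genes; none had an unadjusted p under 0.05, beside 15.4%, and DESeq2 and limma also called 0. Pck1 was at 1492, 1960.2, 2056, 1935 and 4164 CPM with placebo and 1741, 1156, 1751, 2924 and 1659 with GC (-0.33 ± 0.36, 95% interval -1.07 to 0.41). Pcx and Aqp7 were at -0.52 ± 0.36 and -0.26 ± 0.26. Pdk4 was again high in the GC library rich in brown fat transcripts, at 613.8 CPM beside 64.2 to 73.8 in the other 4 and 32.0 to 96.7 in the placebo libraries.

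iBAT showed another pattern with corticosterone at 22 °C, in which the positive values were in the majority. Pdk4 was at 860.5, 749 and 1283 CPM in the 3 placebo libraries and at 2429.6, 3905, 2689.6, 2178 and 1884 in the 5 GC libraries. Every GC library was above every placebo library (log2 fold change 1.44 ± 0.37, 95% interval 0.66 to 2.22), but edgeR's adjusted p was 0.0796. DESeq2 and limma placed it past the threshold (adjusted p = 0.00614 and 0.00337). Pdp1, which counteracts the kinases, also had no overlap, at 6.5, 6.94 and 4.74 against 8.35, 9.38, 12, 7.94 and 8.68 CPM (0.61 ± 0.35; edgeR adjusted p = 0.554). Gpd1 and Pdha1 were at 0.89 ± 0.36 and 0.70 ± 0.32 (edgeR adjusted p = 0.325 and 0.421), with GC replicates 1 and 2 highest for both. Pck1 and Pcx were the negative values, at -0.50 ± 0.30 and -0.47 ± 0.35 (edgeR adjusted p = 0.586 and 0.682).

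With edgeR 0 of the 9 genes were called in this comparison, beside 0.664% of all genes, and 3 had an unadjusted p under 0.05, beside 11.1%. The 2 genes without overlap stand beside 7.57% of all genes. DESeq2 and limma called 1 each, Pdk4. The median of the 9 was 0.61 beside 0.01 over all genes. The macrophage markers averaged 6.38 log2 CPM in GC replicate 5, 2.20 to 3.56 in the other GC libraries and 2.67 to 4.39 with placebo. The 10 skeletal muscle markers averaged -0.731 to 3.17 with GC and 0.0126 to 4.04 with placebo. Fits without the 2 macrophage-rich or the 3 muscle-rich iBAT libraries each left out 1 placebo library of this comparison. Neither fit called any of the 9 genes. The adipocyte markers averaged 9.70 to 10.5 log2 CPM in the GC libraries and 10.1 to 11.3 with placebo, and the brown fat markers 7.67 to 8.07 and 7.54 to 9. Scaling to the adipocyte markers moved the median of all genes to 0.71 and put Pdk4 at 2.08 (edgeR adjusted p = 0.0485), or 1.38 relative to that median. At 13 °C Pdk4 was at 1111, 1960.4, 1416, 1192 and 2524 CPM with placebo and 2101, 1173, 2142, 2001 and 3644 with GC, and these overlapped (0.43 ± 0.31; edgeR adjusted p = 0.712). There 0 of 9 genes were called with edgeR, DESeq2 or limma, beside 0.728% of all genes with edgeR, and 0 had an unadjusted p under 0.05, beside 10.1%. Pck1 had nearly the same value at both temperatures in iBAT, -0.50 at 22 °C and -0.50 at 13 °C.

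The colder housing was followed by higher levels of 4 of the 9 genes in GC-treated scWAT. Aqp7 was at 185, 157, 89.7, 189.7 and 148 CPM at 22 °C and 291, 583, 552 and 313 at 13 °C, without overlap (1.5 ± 0.33; edgeR adjusted p = 0.0145). Pcx went from 1086, 538, 378, 1083 and 615 to 2557, 1817, 1188 and 1332 CPM, also without overlap (1.22 ± 0.30; edgeR adjusted p = 0.0223). Pdk2 (1.29 ± 0.29, edgeR adjusted p = 0.0153) and Pdk1 (1.09 ± 0.29, 0.0286) rose as well, Pdk2 without overlap. All 9 changes were positive, with a median of 0.87 beside 0.00 over all genes. The 4 rises stand beside 8.18% of all genes called and 3.02% called higher, and the 3 without overlap beside 8.67%. This comparison shares its 22 °C GC libraries with the GC comparison above, so the 2 sets of values are not independent.

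These calls were lost without the macrophage-rich libraries. The macrophage markers averaged 4.94 to 8.22 log2 CPM in the GC libraries at 22 °C and 4.45 to 4.61 at 13 °C. The 8 fibroblast and progenitor markers averaged 6.09 to 7.02 at 22 °C and 5.56 to 5.97 at 13 °C, without overlap, and the brown fat markers 3.02 to 3.98 and 3.77 to 5.33. No marker of these 3 lists was at 0, and their part in the rises was not tested. Without GC replicates 2 and 3 at 22 °C none of the 4 was called (Aqp7 1.35, Pcx 0.91, Pdk2 1.12 and Pdk1 0.89, edgeR adjusted p from 0.105 to 0.175). The 4 libraries with epithelial transcripts include 3 of the 4 GC libraries at 13 °C, so the fit without them keeps 1 there. Its 4 values were 0.95 to 1.82, and it cannot show whether the calls depend on these libraries. A fit of only the 2 groups compared ended the calls of Pcx and Pdk1 (edgeR adjusted p = 0.0747 and 0.0748). Removal of GC replicate 3 at 13 °C alone ended all 4 calls, and GC replicate 1 at 13 °C ended those of Pcx and Pdk1. GC replicate 4 at 13 °C ended that of Aqp7, GC replicate 3 at 22 °C those of Pcx and Pdk1, and GC replicate 2 at 22 °C that of Pdk1. Scaled to the adipocyte markers, the 4 values were 0.76 to 0.94 and not called, with a median of all genes of -0.45.

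In placebo scWAT no gene of the whole table was called between 13 °C and 22 °C with edgeR (0% of all genes). Pdk2 came closest of the 9, at 97.1, 185, 189.6 and 168 CPM at 22 °C and 309, 241, 342, 495 and 194 at 13 °C, without overlap (0.98 ± 0.30; edgeR adjusted p = 0.257, and 0.0488 with DESeq2 and 0.0301 with limma). It was the 1 gene of the 9 with an unadjusted p under 0.05 there, beside 12.4% of all genes. In goWAT edgeR, DESeq2 and limma called 0 of the 9 genes between temperatures with placebo (0 with an unadjusted p under 0.05, beside 6.79%) and 0 with GC (2 with an unadjusted p under 0.05, beside 14.3%), beside 0.312% and 0.0149% of all genes with edgeR. All 9 goWAT values with GC were positive, the largest that of Pck1, at 0.96 ± 0.36 (edgeR adjusted p = 0.236). In iBAT edgeR called 0 with placebo, where 2 had an unadjusted p under 0.05 (beside 8.74%) and limma called Pcx and Pdk4, and 0 with GC, where 1 had an unadjusted p under 0.05 (beside 15.5%) and DESeq2 and limma called 0. These stand beside 0.0175% and 0.00583% of all genes. Pcx in placebo iBAT was at -0.91 ± 0.35 (edgeR adjusted p = 0.44), and all 9 iBAT values with GC were negative.

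Whether the GC effect itself differed between temperatures was tested as the effect at 13 °C minus that at 22 °C, and edgeR, DESeq2 and limma called 0 of the 9 genes in each depot. Of all genes, edgeR called 0% (iBAT), 0.461% (goWAT) and 0% (scWAT), and 1, 1 and 2 of the 9 had an unadjusted p under 0.05, beside 6.4%, 13.4% and 9.67%. In goWAT all 9 differences were positive, with Pck1 at 1.06 ± 0.52 and Aqp7 at 0.97 ± 0.38 (edgeR adjusted p = 0.379 and 0.283). In scWAT Aqp7 was at 1.27 ± 0.46 and Pcx at 1.07 ± 0.43 (edgeR adjusted p = 0.387 and 0.421). In iBAT Pdk4 was at -1.01 ± 0.47 (95% interval -1.99 to -0.03; edgeR adjusted p = 0.769). The falls seen in white fat at 22 °C are thus not shown to differ from the values at 13 °C.

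A difference of the GC effect among the 3 depots was tested in 1 fit over the 55 libraries. At 22 °C edgeR called 0 of the 9 genes, beside 0.742% of all genes, although 6 had an unadjusted p under 0.05, beside 17.1%. The smallest edgeR adjusted p were 0.0967 for Aqp7, 0.0968 for Pdk1 and 0.0995 for Pdha1. Their 22 °C effects were 0.40, -1.22 and -0.97 in iBAT, goWAT and scWAT for Aqp7, 0.74, -1.39 and -1.53 for Pdk1, and 0.70, -0.88 and -1.35 for Pdha1. DESeq2 called these 3 genes (adjusted p = 0.0373 to 0.043), limma called them with Gpd1 and Pdk2, and scaling to the adipocyte markers called 8 of 9. Within depots, that scaling moved the all-gene median GC effect at 22 °C to 0.71 (iBAT), -0.48 (goWAT) and 0.44 (scWAT). Whether the 8 calls go beyond this shift was not tested. At 13 °C edgeR, DESeq2 and limma called 0, beside 0.234% of all genes with edgeR, and 1 had an unadjusted p under 0.05, beside 12.3%.

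The 4 kinase genes make up different mixtures in the depots. As a share of the summed RPKM of Pdk1, Pdk2, Pdk3 and Pdk4, Pdk4 took 75% ± 4 (SD, n = 3) in placebo iBAT at 22 °C, 15.6% ± 2.82 (n = 4) in goWAT and 42.8% ± 21.4 (n = 4) in scWAT. Pdk2 took 20.6% ± 3.84, 57% ± 3.93 and 41.6% ± 15, so it was the main kinase transcript of placebo goWAT at 22 °C. With GC at 22 °C the Pdk4 share in iBAT was 86.6% ± 2.86 (n = 5), from 82.7% to 89.4% against 72.2% to 79.6% with placebo, and the 2 groups did not overlap. In goWAT with GC it was 28.3% ± 15.2 at 22 °C (n = 5), the highest share again being that of replicate 1 (52.6%). The summed kinase level in scWAT at 22 °C was 122 ± 58.5 RPKM with placebo and 53.5 ± 7.92 with GC, and these overlapped. Placebo replicates 2 and 4, the richest of their group in brown fat transcripts, had 182.8 and 159.2 RPKM. Placebo replicates 1 and 3 had 57.8 and 89.3, and the highest GC library had 64.3. In iBAT at 22 °C the summed level was 450.7 ± 141 with placebo and 1067 ± 347 with GC, without overlap. Pdk3, the remaining kinase gene, did not pass the test, at 1.31 ± 0.52 in scWAT and 0.80 ± 0.33 in goWAT with GC at 22 °C (edgeR adjusted p = 0.137 and 0.147).

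**Figure D4:**
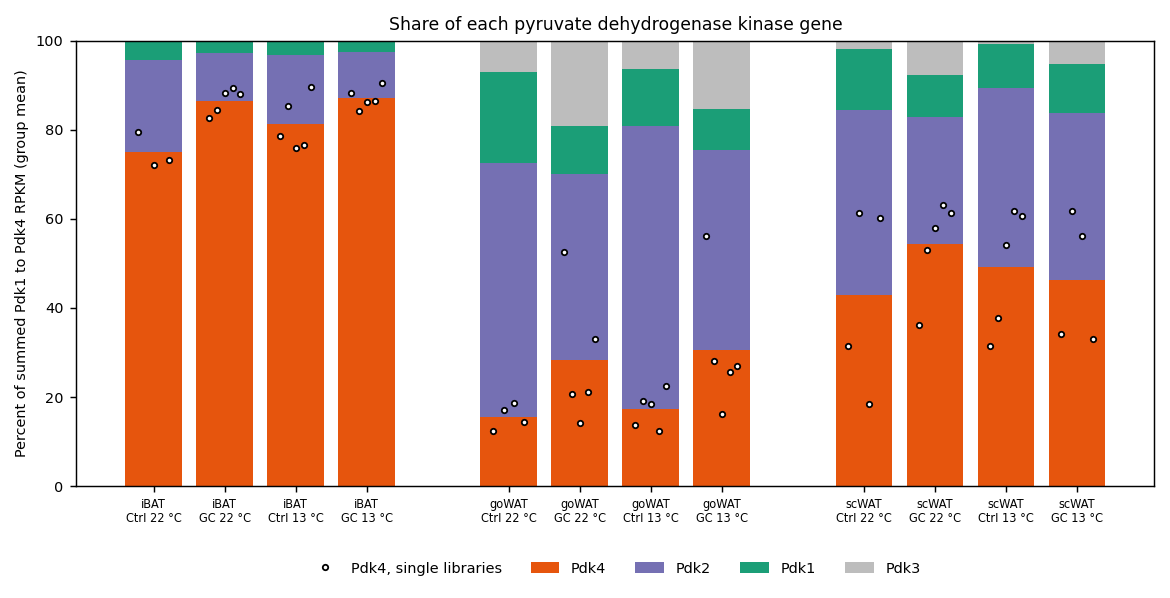
Group mean share of Pdk1 to Pdk4 in their summed RPKM (bars, percent, adding to 100) by depot and group, with the Pdk4 share of each library as open points. Pdk4 takes most of the iBAT bars, Pdk2 most of the 2 placebo goWAT bars (57% and 63.5%, beside 41.7% and 44.9% with GC), and the scWAT libraries scatter widely.

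**Figure D5:**
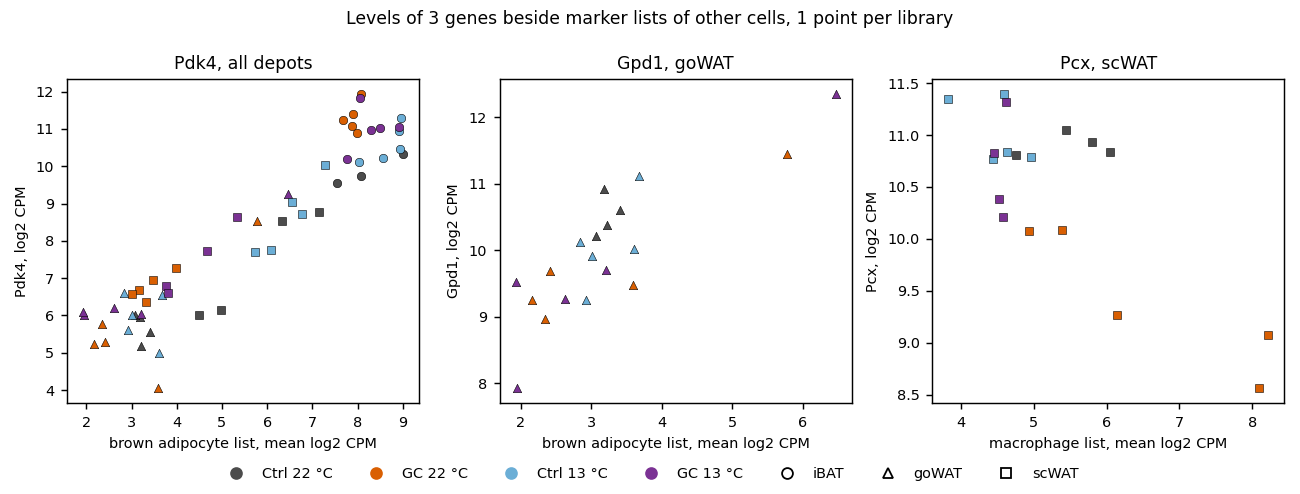
Level of Pdk4 in all depots, Gpd1 in goWAT and Pcx in scWAT (vertical axes, log2 CPM) against the mean level of a marker list of other cells in the same library (horizontal axes, log2 CPM). The 2 goWAT libraries at 5.78 and 6.47 on the brown fat list have the highest Pdk4 and Gpd1 of their depot, the iBAT library at 9 on that list has less Pdk4 than the GC iBAT libraries at 22 °C, and the 2 scWAT libraries above 8 on the macrophage list have the lowest Pcx.

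Genes around the 9 were counted from 5 lists, some of which hold the 9 genes themselves. The lists were fitted only with all libraries. In scWAT with GC at 22 °C the calls of Pcx, Gpd1 and Pdha1 were lost without the 2 macrophage-rich libraries. Whether the other genes of the lists keep their calls without them was not tested. A list named for glycerol 3-phosphate supply held 18 measured genes, among them Pck1, Pcx, Gpd1 and the glycerol channel gene Aqp7. Of these 18, 4 fell in goWAT and 5 in scWAT with GC at 22 °C, and 1 rose in scWAT. Of all genes, 5.98% were called in goWAT (2.85% lower) and 6.93% in scWAT (3.45% lower). The median changes of this list were -0.35 and -0.75, and 0.13 in iBAT, beside 0.05, 0.06 and 0.01 over all genes. Slc25a1, the mitochondrial citrate carrier, fell by 2.07 in goWAT and 3.00 in scWAT on the log2 scale (edgeR adjusted p = 0.0265 and 7.12e-05). Me1, the cytosolic malic enzyme, and Gpd2, the mitochondrial partner of Gpd1, fell in scWAT (-1.90 ± 0.37 and -1.53 ± 0.34; edgeR adjusted p = 0.00336 and 0.00829). The 1 rise was that of Slc25a13, a mitochondrial aspartate and glutamate carrier, at means of 0.316 ± 0.303 CPM (SD, n = 4) with placebo and 5.06 ± 5.42 (n = 5) with GC, which overlapped. Pck2, the mitochondrial isoform of Pck1, was at -0.01 ± 0.30 and 0.70 ± 0.31 (edgeR adjusted p = 0.985 and 0.187).

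The pyruvate dehydrogenase list of 17 genes had 9 falls and 0 rises in scWAT with GC at 22 °C and 5 falls at 13 °C, with medians of -1.09 and -0.88 beside 0.06 and 0.01 over all genes. The shares of all genes called in these comparisons were 6.93% and 2.59%. At 22 °C the median of this list was -0.22 in goWAT, with 5 of 17 positive, and 0.61 in iBAT, with 13 of 17 positive. Beside Pdk1, Pdk2 and Pdha1, the scWAT falls at 22 °C were those of the other subunits Pdhb (-1.62 ± 0.34) and Dlat (-1.27 ± 0.33), of Mpc1 (-1.69 ± 0.39) and Mpc2 (-1.63 ± 0.30), which carry pyruvate into mitochondria, of the phosphatase Pdp2 (-1.63 ± 0.33) and of the lactate and pyruvate transporter Slc16a1 (-1.09 ± 0.27), with edgeR adjusted p of 0.00193 to 0.0225. At 13 °C Mpc1, Mpc2, Dlat and Pdp2 fell with Pdk2. Slc25a13, Pdhb, Dlat, Mpc1 and Slc16a1 lie outside the rule for naming genes in 1 or both of these comparisons and were named after their values were seen. At 13 °C against 22 °C in GC-treated scWAT, 3 of 17 rose, Pdk1, Pdk2 and the phosphatase regulator Pdpr (1.34 ± 0.37; edgeR adjusted p = 0.0336). In this comparison 8.18% of all genes were called and 3.02% were called higher. The calls of Pdk1 and Pdk2 were lost without the macrophage-rich libraries, as given above.

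Of 12 genes of triglyceride esterification, which use glycerol 3-phosphate, 4 fell in goWAT and 4 in scWAT with GC at 22 °C and the medians were -0.37 and -0.59, beside 5.98% and 6.93% of all genes called and medians of 0.05 and 0.06 over all genes. Gpam, the first enzyme of the route, fell in both (-1.52 ± 0.28 and -1.30 ± 0.26; edgeR adjusted p = 0.00203 and 0.00411), as did Dgat1, which adds the last fatty acid (-0.98 ± 0.21 and -0.94 ± 0.20; 0.00694 and 0.00558). Among 10 lipolysis genes, G0s2, an inhibitor of the triglyceride lipase, rose in goWAT and scWAT at both temperatures (1.35 and 1.89, 1.81 and 1.49; edgeR adjusted p from 0.00231 to 0.0199). At 22 °C 3 lipolysis genes fell in goWAT, among them Plin1 (-1.33 ± 0.24), and 1 in scWAT, Cidea, beside the same shares of all genes. Cidea is also 1 of the 10 brown fat markers, which averaged lower with GC in scWAT at 22 °C. Among transcription factors and coactivators that act on Pck1 or Pdk genes (21 or 22 measured), Klf15 fell with GC at 22 °C in iBAT (-3.32 ± 0.40), goWAT (-1.54 ± 0.24) and scWAT (-1.30 ± 0.31). Foxo1 fell in iBAT (-1.64 ± 0.33; edgeR adjusted p = 0.0203) and Cebpd in goWAT and scWAT (-2.42 ± 0.45 and -2.27 ± 0.42). These were 2 called genes of the list in each depot, beside 0.664%, 5.98% and 6.93% of all genes.

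Across the 12 group means, each centred on its depot, Pearson's r among the 7 genes other than Pdk4 and Pdp1 ran from 0.52 (Pck1 with Gpd1) to 0.97 (Pdha1 with Pdk1). It was 0.95 between Pdha1 and Gpd1, 0.91 between Pdk1 and Pdk2 and 0.90 between Pck1 and Pcx. Pdk4 correlated with the 7 at 0.18 (Pcx) to 0.64 (Gpd1), a range that overlaps theirs, and Pdp1 at -0.20 to 0.37 with the other 8. These are descriptions over 12 groups that share depots and libraries. Among 6625 genes (6626 for Pdp1) ranked in the same way, the genes most like Pdha1 were the complex subunit Dlat (0.98), Pdk1 (0.97) and the subunit Pdhb (0.97). Most like Gpd1 were Pdhb (0.98), Gpd2 (0.97) and the citrate-cleaving enzyme Acly (0.97), and most like Pdk1, after Pdha1, the fatty acid synthase Fasn (0.97) and Psmd5 (0.96). Pck1 ranked with H2-Q10, Glod4 and Slc27a1 (0.97, 0.97 and 0.96), Pcx with Nos3, Srebf1 and Cyb5rl (0.96 each), Aqp7 with Ldlrad3, Tspyl1 and Lrrc40 (0.99, 0.96 and 0.96), Pdk2 with Pald1, Oplah and Entpd5 (0.98, 0.97 and 0.97), Pdk4 with Acaa2, Gfm1 and Mecr (0.96, 0.95 and 0.94) and Pdp1 with Zmym2, Topors and Gnai3 (0.93, 0.93 and 0.92).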

How the data were processed

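The authors deposited 1 table of raw counts for each depot. Per the submitters' processing notes, the tools behind it were FastQC, GSNAP (alignment, build mm10) and featureCounts 1.6.3. Which annotation release and strand setting were used is not given in the sources used here. Per the labels' protocols, libraries were made with SMART-Seq2 from laser-captured tissue. Groups came from the labels and replicate numbers from the titles.

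Each depot was fitted with edgeR 4.0.16 in R 4.3.3 (filterByExpr with at least 10 counts, TMM scaling, 1 mean per group, robust quasi-likelihood test) over 17163 (iBAT), 20175 (goWAT) and 19003 (scWAT) genes, and all 55 libraries together over 22245 genes for tests between depots. A gene was called when its p, adjusted by Benjamini and Hochberg over all genes of a comparison, was under 0.05. The biological coefficient of variation was 50.5%, 49.99% and 47.8%. CPM use the TMM-scaled library size within a depot, and RPKM the union exon length of GENCODE M21. Alternatives were DESeq2 1.42.0, limma 3.58.1 voom with library weights, RLE factors, no filter, only the groups compared, a replicate block, scaling to adipocyte markers, and fits without single or doubted libraries. The code was tested on simulated data. Marker and pathway lists were written from general knowledge. The 9 genes and the lists were chosen with earlier results of these data known. Of pathway genes, the text names the 9, Pck2, Gpd2, Pdk3 and Pdp2, and up to 4 per list and comparison by adjusted p among those called; like genes are the top 3 by Pearson's r among protein-coding genes whose mean log2 CPM reached 3 in each depot.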

Additional observations from a re-analysis of the deposited data

Results flagged for a closer look

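Within groups of 4 or 5 libraries, 7 of 99 gene and group combinations had 1 library whose gap from the others exceeded Dixon's 95% critical value. Chance flags about 1 in 20 such groups. Of the 7, 4 were in goWAT GC replicate 1 at 13 °C, the library with 6.47 log2 CPM on the brown fat list. It had 2540.1 CPM of Pcx beside 909 to 1058 in the other 4, 273.9 of Pdk1 beside 48.9 to 57.8, 614 of Pdk4 beside 64.2 to 73.8 and 1272 of Pdha1 beside 314 to 467. The other 3 were goWAT placebo replicate 2 at 13 °C (Pcx 3396 CPM, beside 1296 to 1589), scWAT GC replicate 3 at 13 °C (Pdk2 165 CPM, beside 117 to 123) and scWAT placebo replicate 1 at 22 °C (Pdha1 504.3 CPM, the lowest, beside 862 to 942). The 9 genes in the 3 placebo iBAT libraries at 22 °C were not tested in this way.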

How the results depend on the processing

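No called change of the 9 genes reversed its direction under any alternative. Of the 16 calls, DESeq2, limma and RLE factors each kept 16, the fit with no filter 15, scaling to the adipocyte markers 6 and the replicate block 14. The fit of only the groups compared kept 9 of 13. Over the fits that left out 1 library, 360 of 402 calls were kept. Many of these fits left out a library outside the groups compared. Every lost call was lost without a library of the groups compared, so the share kept among those fits is lower. The shares of all genes called under the alternatives are not given here, so the counts below are not shown to be particular to the 9 genes. The number of the 9 genes called with GC at 22 °C in iBAT (0) was 1 with DESeq2, 1 with limma and 1 with adipocyte scaling, and limma gave 2 for temperature in placebo iBAT. In goWAT, GC at 22 °C (3) gave 6 with adipocyte scaling, 1 without the 2 libraries of low totals, 7 without the 2 rich in brown fat transcripts, and 2 without the 3 with epididymal transcripts or with only the groups compared, and temperature with GC (0) gave 5 with adipocyte scaling. In scWAT, GC at 22 °C (5) gave 0 with adipocyte scaling and 2 without the 2 macrophage-rich libraries, and 4 without the 4 with epithelial transcripts or with only the groups compared. GC at 13 °C in scWAT (1) gave 4 with DESeq2, 4 with limma, 3 with only the groups compared and 2 without the macrophage-rich libraries. Temperature in scWAT gave 1 with DESeq2 and 1 with limma in placebo (0), and with GC (4) 2 with only the groups compared, 0 with adipocyte scaling and 0 without the macrophage-rich libraries. Leaving out the 4 with epithelial transcripts keeps 1 GC library at 13 °C in scWAT, so no count is given for the comparisons that use that group. Between depots, iBAT against goWAT (3) gave 1 without the 18 libraries, iBAT against scWAT (0) gave 1 with DESeq2, 1 with limma, 1 with RLE factors and 2 with adipocyte scaling, and goWAT against scWAT (0) gave 1 with limma and 1 without the 18 libraries. The GC effect between depots at 22 °C (0) gave 3 with DESeq2, 5 with limma and 8 with adipocyte scaling.

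Leaving out 1 library gave 1 to 5 called genes for GC at 22 °C in goWAT, 3 to 6 in scWAT, 0 to 2 for GC at 13 °C in scWAT, 0 to 5 for temperature in GC scWAT, 1 to 4 for iBAT against goWAT, 0 to 1 for the other depot pairs, and 0 to 3 for the GC effect between depots at 22 °C. Replicate numbers did not pair the libraries: correlations of same-numbered libraries ran from -0.48 to 0.44, and no comparison had all pairs over 0.1. With the replicate block, GC at 13 °C in scWAT gave 0 called genes, with Pdk2 at an edgeR adjusted p of 0.0639, and Pdk1 for temperature in GC scWAT had 0.0545. Pdp1 had 65 to 1238 counts per library, so counting error is part of its spread at this depth.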

Other observations

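Pdk4 was set beside the brown fat markers within each library, a comparison chosen after the values were seen. The difference between Pdk4 and the mean of the 10 brown fat markers on the log2 scale was 3.41 ± 0.37 (SD, n = 5) in GC iBAT at 22 °C and 1.67 ± 0.34 (n = 3) in placebo, without overlap. The exact two-sided permutation test gave p = 0.0179, the smallest that 3 against 5 libraries allow. In scWAT at 22 °C it was 3.37 ± 0.22 (n = 5) with GC and 1.64 ± 0.43 (n = 4) with placebo, again without overlap (exact p = 0.0079). At 13 °C the GC groups were 0.79 higher in iBAT, where the groups overlapped, and 0.88 higher in scWAT, where they did not (exact p = 0.0159 for each). The adjusted p over the 6 comparisons was 0.0268 for these 4. That adjustment does not cover the choice made after the values were seen, and Pdk4 alone was already without overlap in iBAT at 22 °C. The p-values are therefore descriptions and no separate evidence. In goWAT the GC minus placebo difference was 0.052 at 22 °C and 0.75 at 13 °C (exact p = 0.96 and 0.175; adjusted p = 0.96 and 0.21). In scWAT the brown fat markers were themselves lower with GC, at 3.02 to 3.98 against 4.48 to 7.14 log2 CPM at 22 °C, so the difference rose there while Pdk4 itself did not. What the marker level adds to the result was not tested.

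Plin1, which coats the lipid droplet, was the 1 gene of the 5 pathway lists with a called difference between temperatures in the GC effect: in goWAT it was lower at 13 °C than at 22 °C with placebo (-1.80 ± 0.24; edgeR adjusted p = 6.00e-04), and its GC effect at 13 °C was 2.01 ± 0.33 above that at 22 °C (edgeR adjusted p = 0.00521).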
